A study of Mus musculus with 12 samples.

Results

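The genes described here are 8 readouts of fibroblast growth factor (FGF) signalling, namely Etv4, Etv5, Spry2, Spry4, Dusp4, Dusp6, Spred1 and Spred2, in the neocortex of E13.5 mouse embryos. They were found by symbol in the platform's table of probes and genes, which gave 10 probes of 21766 probes that are no controls, and 8 of 15063 named genes; 2 of the genes, Etv5 and Spred1, had 2 probes each and the others had 1. Rostral and caudal neocortex of the same embryos, 3 embryos to a pool per the labels and at least 2 per the design text, was compared on arrays carrying both samples, one labelled with Cy3 and the other with Cy5. Outbred MF1 embryos gave 3 pools and inbred C57 embryos (C57Bl\6 in the design text) another 3, none with a treatment or engineered allele in the labels, and a pool had 2 arrays of opposite dye orientation, 12 arrays in all. The values below are rostral over caudal log2 ratios, so a positive value means a higher level at the rostral end and says nothing of the level itself.

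FGFs are secreted proteins that bind receptor tyrosine kinases at the cell surface and switch on the Ras-ERK cascade. A source of FGFs at the rostral midline of the telencephalon is known to pattern the cortex along its length. ERK activity induces the ETS transcription factors Etv4 and Etv5, and also the inhibitors that restrain the cascade: the Sprouty proteins Spry2 and Spry4, the Sprouty-related proteins Spred1 and Spred2, which act between the receptor and Raf, and the phosphatases Dusp4 and Dusp6, which remove the activating phosphates from ERK. Transcripts of these genes are therefore widely used as a readout of where FGF signals act. The question put to the series was which transcripts are graded along the rostral to caudal axis, and whether strains share the pattern.

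The windows before the transcription starts of the 3 genes with the smallest p-values are shown because the ETS factors among these genes belong to a family that binds DNA around the letters GGAA. Each is the 250 bases upstream of a start in RefSeq on GRCm38.p6, written 5′ to 3′ on the strand of the gene, with GGAA or its reverse complement TTCC in capitals. Etv5 had 2 starts in the table, the upstream one at chr16:22439571-22439820 on the minus strand and the downstream one at chr16:22438369-22438618 on the minus strand. The window of Spry2 is at chr14:105896820-105897069 on the minus strand and that of Spred1 at chr2:117120821-117121070 on the plus strand.
Etv5, upstream start: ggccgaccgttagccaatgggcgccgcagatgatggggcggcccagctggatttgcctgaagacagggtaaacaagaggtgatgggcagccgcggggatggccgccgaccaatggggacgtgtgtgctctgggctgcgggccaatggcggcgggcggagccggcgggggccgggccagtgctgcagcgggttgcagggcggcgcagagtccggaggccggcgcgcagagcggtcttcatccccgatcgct
Etv5, downstream start: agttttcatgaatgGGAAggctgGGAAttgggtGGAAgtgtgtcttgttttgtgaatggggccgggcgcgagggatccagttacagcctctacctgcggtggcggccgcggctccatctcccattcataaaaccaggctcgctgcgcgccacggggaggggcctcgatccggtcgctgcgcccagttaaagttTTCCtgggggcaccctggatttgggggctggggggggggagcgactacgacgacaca
Spry2: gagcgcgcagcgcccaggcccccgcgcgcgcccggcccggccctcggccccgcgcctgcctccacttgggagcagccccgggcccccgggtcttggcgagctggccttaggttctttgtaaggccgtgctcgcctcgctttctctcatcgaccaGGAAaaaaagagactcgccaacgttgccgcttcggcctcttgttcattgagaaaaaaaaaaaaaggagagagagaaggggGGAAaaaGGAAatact
Spred1: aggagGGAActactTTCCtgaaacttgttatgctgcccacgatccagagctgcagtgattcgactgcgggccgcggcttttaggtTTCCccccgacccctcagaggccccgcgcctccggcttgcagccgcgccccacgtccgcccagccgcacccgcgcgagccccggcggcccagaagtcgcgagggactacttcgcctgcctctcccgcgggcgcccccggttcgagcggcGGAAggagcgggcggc
In these windows GGAA, counted on both strands, was matched 0 times before the upstream and 4 times before the downstream start of Etv5, 3 times before Spry2 and 4 times before Spred1. It was present in 93.4% of 32851 windows of the same length, with a median of 3 matches, so these counts lie near the usual one except at the upstream start of Etv5. Dusp6 had 6 matches and Spred2 had 7, numbers reached or passed by 8.69% and 3.82% of windows. The longer ETS form CCGGAA, in 12% of all windows, the cyclic AMP response element TGACGTCA, in 1.55%, and the AP-1 form TGACTCA, in 4.46%, each had 0 matches in the 6 windows of these 5 genes. The first of these holds GGAA within it. A match is a string of letters and no measured site.

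Between 17996 and 20769 probes had a value on an array. The share of probes without one ran from 4.58% to 11.7% on the MF1 arrays and from 11.6% to 17.3% on the C57 arrays. No source used here states which dye is the numerator, so the direction is only likely. It follows from reading the ratios as Cy5 over Cy3 and turning the arrays with rostral RNA in Cy3. Among genes that are no members, Nr2f1, a nuclear receptor known for a caudal gradient, was then below 0 in 6 of 6 pools (-0.48, -0.58 and -0.88 in MF1, -1.89, -1.48 and -1.51 in C57), as was Lhx2, a homeobox factor of cortical progenitors, at -0.50 ± 0.13 (SD, n = 6). Pax6, a progenitor factor known to be higher rostrally, was above 0 in 6 of 6 pools at 0.41 ± 0.18. The other genes looked at for the direction were less clear or went against it. Of those known for a caudal gradient, Fgfr3, an FGF receptor, was below 0 in 6 of 6 pools at -0.38 ± 0.37, while the transcription factor Emx2, at 0.09 ± 0.27, and Crym, a thyroid hormone binding protein, at -0.05 ± 0.31, had 3 pools on either side. Of the ligands taken as rostral, Fgf8 was at 0.20 ± 0.25, Fgf17 at -0.05 ± 0.41 and Fgf15 at -0.39 ± 0.61, with 4, 4 and 3 of 6 pools above 0. MF1 pool 3 stood apart: across all features its ratios correlated with those of MF1 pools 1 and 2 at Spearman -0.22 and -0.21, while pools 1 and 2 correlated at 0.28, yet Nr2f1, Lhx2 and Pax6 had the same sign there as in the other pools. Before turning, its single arrays correlated at Spearman 0.14 to 0.22 with the arrays of opposite orientation of MF1 pools 1 and 2. With those of the same orientation they correlated at -0.07 to -0.06. Arrays of opposite orientation also correlated above 0 within C57, at 0.13 to 0.40. These include both arrays of the same pool, at 0.30, 0.16 and 0.13 in C57 pools 1, 2 and 3. In MF1 pools 1, 2 and 3 both arrays of a pool correlated at -0.12, -0.04 and -0.23. Turning reverses these signs, so across features the arrays of each C57 pool then disagreed, and those of MF1 pool 3 agreed best. The cause was not tested. With C57 pools 1, 2 and 3 the turned ratios of MF1 pool 3 correlated at 0.22, -0.04 and 0.11. Whether the orientation of MF1 pool 3 is labelled rightly is in doubt, and a wrong label would turn each MF1 pool 3 value below. The members' means are also given without it. Only ratios were used here, so the level of cortical markers could not be checked against the labelled tissue. In bulk tissue, fewer cells of a type and less RNA per cell cannot be told apart.

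Of the 8 members 7 had a mean above 0, with Spry4 the exception, where 51.5% of all features did, and the median of the 8 mean ratios was 0.27 against 0.01 over all 14432 features tested. Etv5, Spry2, Spred1 and Dusp6 were above 0 in every pool measured, which was true of 3.31% of all features, while 3.06% were below 0 in every pool. Dusp6 had 5 such pools, and its only array of C57 pool 3, which did not enter, was at -3.74. For Spred1 this held for the mean of its probes, and probe CG_Mm_EXT_3106868_1 was below 0 in 4 of 6 pools. Etv5, Spry2 and Spred1 were higher rostrally at an unadjusted p under 0.05 (limma on pool means), and 0 members were lower, where 4.34% of all features were higher and 4.62% lower. After Benjamini-Hochberg adjustment 0 of the 8 members and 0% of all features passed 0.05, and the smallest adjusted p of any feature was 0.149. With the 12 arrays fitted one by one, a dye term and the pool as a random block, 25 features passed, Etv5 among them (limma, adjusted p = 0.0276). That fit counts the 2 arrays of a pool, which carry the same samples, as nearly independent. Fitted in that way as single probes, neither probe of Etv5 passed (limma, adjusted p = 0.208 and 0.256). On pool means the adjusted p of Etv5 was 0.333 (limma). Without MF1 pool 3 the members' median was 0.30, and Etv5, Spry2, Spred1 and Dusp4 were higher at an unadjusted p under 0.05, against 5.09% of features. Leaving out any other pool left 2 members, Etv5 and Spry2, against 2.95% to 4.31% of features.

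**Figure D1:**
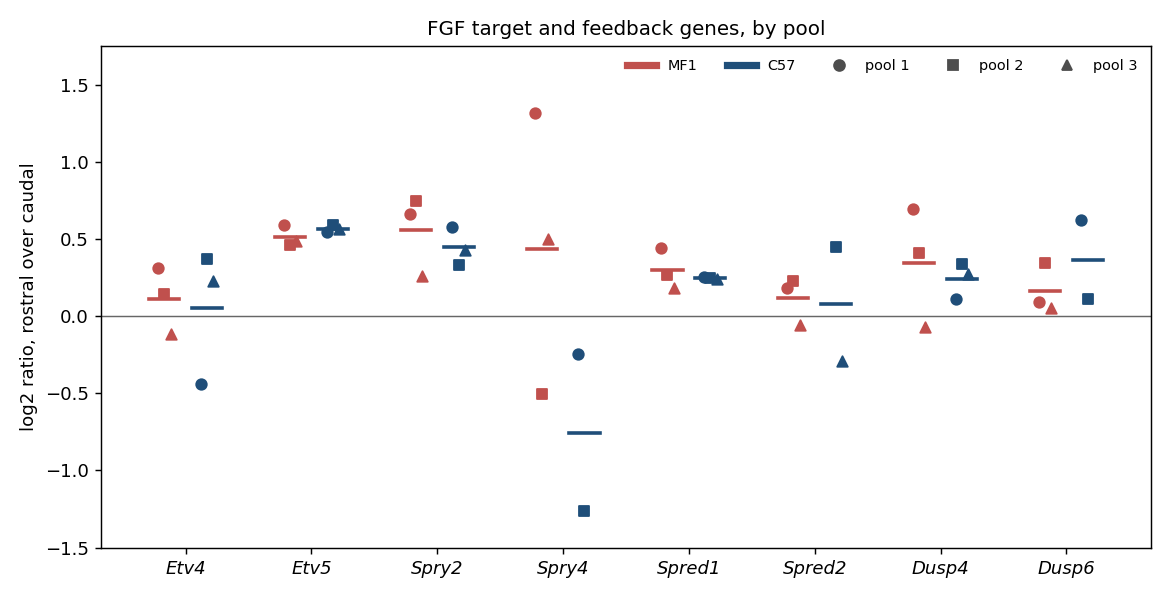
Rostral over caudal log2 ratio (y axis) of each member (x axis), with a point for each pool, red for MF1 and blue for C57, the shape giving the pool number, and a line at the mean of each strain. Etv5 sits between 0.46 and 0.59 in the 6 pools, while Spry4 runs from -1.26 to 1.32.

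Etv5, an ETS transcription factor, had ratios of 0.59, 0.46 and 0.49 in the MF1 pools, against 0.54, 0.59 and 0.56 in the C57 pools. No pool stood out, and the strains overlapped. Its mean was 0.54 ± 0.05 (SD, n = 6), a 1.45-fold higher rostral level, with a 95% interval of the fit from 0.30 to 0.78. It was the feature with the 46th smallest p of 14432 (limma, unadjusted p = 0.00107, adjusted p = 0.333). The strains differed by -0.05 (MF1 minus C57), with a 95% interval from -0.53 to 0.42. Averaged over its probes, Etv5 was above 0 on 12 of 12 arrays, which was the case for 0.254% of the 10623 features with a value on each array. Without MF1 pool 3 its mean was 0.55.

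The narrow spread of Etv5 held for the mean of its 2 probes and not for either one. Probe CG_Mm_3001489_1 gave 1.098, 0.65 and -0.03 in the MF1 pools, against 0.53, 0.83 and 0.57 in the C57 pools. Probe CG_Mm_EXT_3107692_1 gave 0.08, 0.28 and 1.01 in the MF1 pools, against 0.56, 0.36 and 0.56 in the C57 pools. In MF1 the pool that was highest on one probe was lowest on the other, whereas in C57 both probes were above 0 in each pool. Over both strains the first probe averaged 0.61 ± 0.38 and the second 0.47 ± 0.32 (SD, n = 6 each). Both had an unadjusted p under 0.05 in the fit of single probes (limma, adjusted p = 0.445 and 0.479 over 15288 probes), where 4.42% of probes were that far on the rostral side and 0% passed adjustment. The first was above 0 on 11 of 12 arrays and the second on 12 of 12. They averaged 0.76 and 0.34 without MF1 pool 3.

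Etv4, the close relative of Etv5 and like it a target of FGF signals, had ratios of 0.31, 0.14 and -0.12 in the MF1 pools, against -0.44, 0.37 and 0.23 in the C57 pools. It was above 0 in 4 of 6 pools, and the lowest pool of each strain lay below 0. Its mean was 0.08 ± 0.31 (SD, n = 6), with a 95% interval from -0.26 to 0.43 that holds 0 and reaches into the interval of Etv5 (limma, adjusted p = 0.882). With each pool left out the mean ran from 0.0035 without C57 pool 2 to 0.205 without C57 pool 1, and it was 0.14 without MF1 pool 3. The ratio of Etv4 was -0.11 with arrays not centred, a setting in which the median of all features was -0.18.

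**Figure D2:**
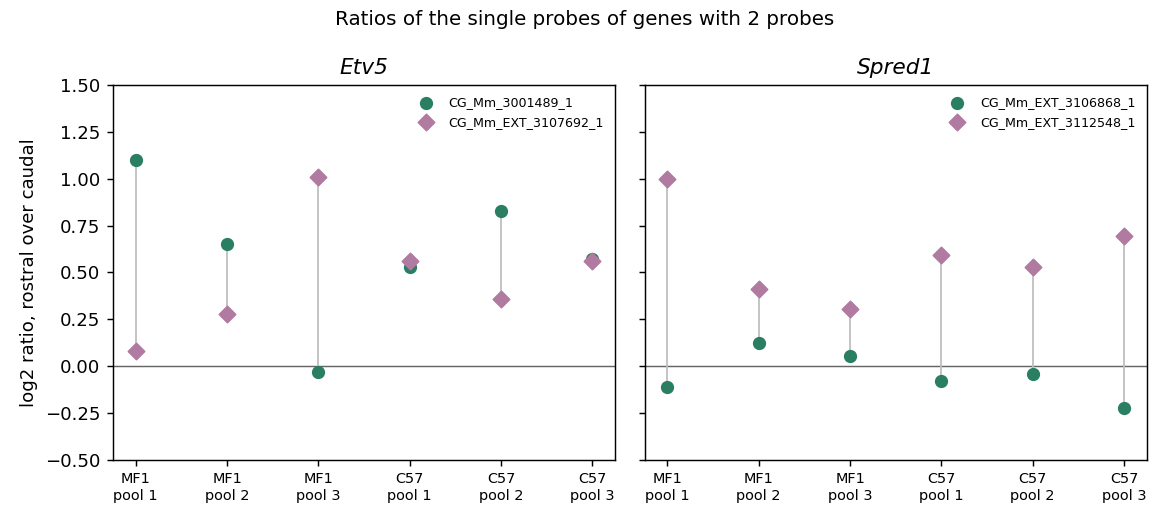
Rostral over caudal log2 ratio (y axis) of each single probe of Etv5 and of Spred1 in the 6 pools (x axis), with a grey line joining both probes of a pool. The Etv5 probes change places between MF1 pools 1 and 3, and the Spred1 probes lie apart in all 6 pools, one between 0.31 and 0.999 and the other between -0.22 and 0.12.

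Among the Sprouty genes, Spry2, an inhibitor of receptor tyrosine kinase signalling, had ratios of 0.66, 0.75 and 0.26 in the MF1 pools, against 0.58, 0.33 and 0.43 in the C57 pools. All were above 0, MF1 pool 3 was the lowest, and the strains overlapped. The mean was 0.50 ± 0.19 (SD, n = 6), a 1.41-fold higher rostral level, with a 95% interval from 0.22 to 0.78 (limma, unadjusted p = 0.004, adjusted p = 0.413). On the single arrays Spry2 was above 0 on 11 of 12, the exception being the array of MF1 pool 3 with rostral RNA in Cy5, at -0.13. In MF1 the arrays with rostral RNA in Cy5 gave 0.39, 0.41 and -0.13, while those with rostral RNA in Cy3 gave 0.93, 1.08 and 0.65. In C57 both orientations of a pool lay within 0.078 of each other. The mean of Spry2 was 0.57 without MF1 pool 3. The strain difference was 0.11 (MF1 minus C57), with a 95% interval from -0.45 to 0.67.

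Spry4, a second Sprouty inhibitor, was the most variable member. Its pools were at 1.32, -0.50 and 0.50 in MF1, against -0.25 and -1.26 in C57, where pool 3 had no value on 1 of its arrays. Both strains had a pool below 0, and the sign was not shared within MF1. The strain means were 0.44 in MF1 and -0.76 in C57. The fitted mean was -0.16, with a 95% interval from -0.91 to 0.59 (limma, adjusted p = 0.897, 5 pools). The arrays behind it disagreed: in C57 pools 1 and 2 the array with rostral RNA in Cy5 gave -3.00 and -5.25, and that with rostral RNA in Cy3 gave 2.50 and 2.73. The median gap between both arrays of a pool was 2.45 for Spry4, a gap reached or passed by 1.91% of features, against a median of 0.49 over all features. The mean turned to 0.22 in the fit of the 12 arrays and to 0.08 without MF1 pool 2, and was -0.17 without MF1 pool 3. The strain difference of 1.19 had a 95% interval from -0.31 to 2.70 (limma, adjusted p = 0.906). It ran from 0.75 without MF1 pool 1 to 1.66 without MF1 pool 2 (limma, unadjusted p = 0.224 and 0.0236, adjusted p = 1 for both), and it was 0.43 in the fit of the 12 arrays and 0.35 with pools of 1 orientation kept.

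**Figure D3:**
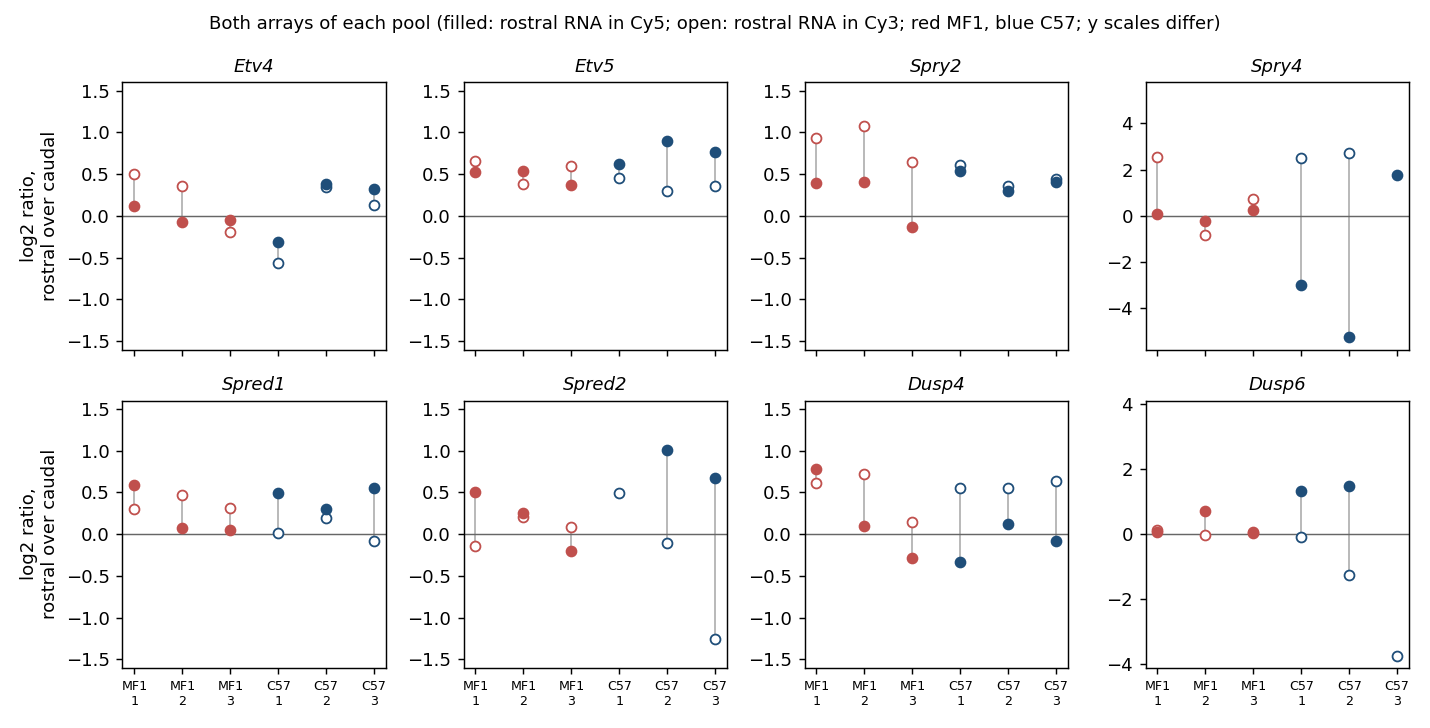
Rostral over caudal log2 ratio (y axis, on scales that differ between panels) on both arrays of each pool (x axis), filled for rostral RNA in Cy5 and open for rostral RNA in Cy3, red for MF1 and blue for C57. Etv5 lies above 0 on all 12 arrays, while Spry4, Dusp4, Dusp6, Spred1 and Spred2 each have a C57 pool whose arrays lie on opposite sides of 0.

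Of the Sprouty-related genes, Spred1, which holds Ras signalling in check through the GTPase activator neurofibromin, had ratios of 0.44, 0.27 and 0.18 in the MF1 pools, against 0.26, 0.24 and 0.24 in the C57 pools. All pools were above 0, and the C57 values lay inside the MF1 range. Its mean was 0.27 ± 0.09 (SD, n = 6), a 1.21-fold higher rostral level, with a 95% interval from 0.03 to 0.52 (limma, unadjusted p = 0.0338, adjusted p = 0.527). This mean joined 2 unlike probes. Probe CG_Mm_EXT_3112548_1 gave 0.999, 0.41 and 0.31 in the MF1 pools, against 0.59, 0.53 and 0.70 in the C57 pools, and averaged 0.59 ± 0.24 (limma, unadjusted p = 0.00298, adjusted p = 0.362). Probe CG_Mm_EXT_3106868_1 gave -0.11, 0.12 and 0.05 in the MF1 pools, against -0.08, -0.04 and -0.22 in the C57 pools, and averaged -0.05 ± 0.12 (adjusted p = 0.908). The first was above the second in 6 of 6 pools, so what is said of Spred1 depends on the probe. Leaving out MF1 pool 3, the first probe averaged 0.66, the second -0.05 and the gene 0.30. At the gene level the unadjusted p of Spred1 stayed under 0.05 when MF1 pool 3 was left out (limma, 0.0282) and lay between 0.0636 and 0.102 when any other pool was. Spred2, which acts on the same step, had ratios of 0.18, 0.23 and -0.06 in the MF1 pools, against 0.45 and -0.29 in C57 pools 2 and 3, pool 1 having a value on 1 array alone. Its fitted mean was 0.10, with a 95% interval from -0.30 to 0.50 (limma, adjusted p = 0.873, 5 pools). With rostral RNA in Cy3 alone it was -0.12, and without MF1 pool 3 it was 0.14.

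The phosphatase Dusp4, a nuclear inactivator of ERK, had ratios of 0.70, 0.41 and -0.07 in the MF1 pools, against 0.11, 0.34 and 0.28 in the C57 pools. It was above 0 in 5 of 6 pools, with MF1 pool 3 below. The mean was 0.29 ± 0.26 (SD, n = 6), with a 95% interval from -0.02 to 0.61 (limma, unadjusted p = 0.0655, adjusted p = 0.58). Without MF1 pool 3 the mean was 0.40 (limma, unadjusted p = 0.0142, adjusted p = 0.449). With rostral RNA in Cy5 alone it was 0.05 and with rostral RNA in Cy3 alone 0.54. Dusp6, the cytoplasmic phosphatase of ERK, had ratios of 0.09, 0.34 and 0.06 in the MF1 pools, against 0.62 and 0.11 in C57 pools 1 and 2. Each of these was above 0, and the strains overlapped. Its fitted mean was 0.26, with a 95% interval from -0.09 to 0.62 (limma, adjusted p = 0.631, 5 pools). In C57 its arrays with rostral RNA in Cy5 gave 1.32 and 1.47, and those with rostral RNA in Cy3 gave -0.08, -1.25 and -3.74, the last from pool 3, which had no value on its other array and so did not enter. With pools of 1 orientation kept the mean of Dusp6 was -0.42, and in the fit of the 12 arrays -0.07. The mean was 0.29 without MF1 pool 3.

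**Figure D4:**
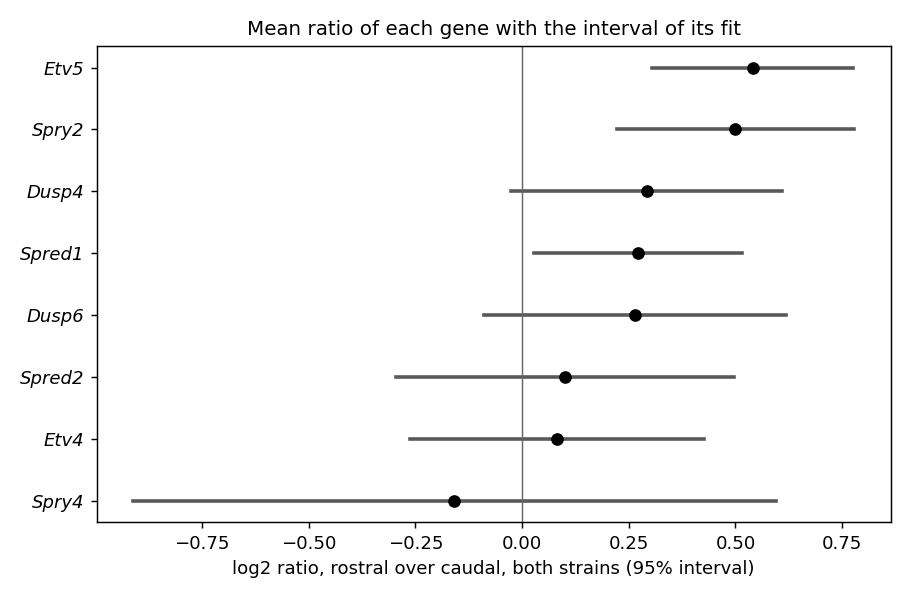
Mean rostral over caudal log2 ratio over both strains (x axis) for each member (y axis), the points being means of the limma fit and the bars their 95% intervals, not adjusted for the number of genes. The intervals of Etv5, Spry2 and Spred1 lie above 0 and the other 5 hold 0.

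Ordered by mean ratio the members ran Etv5, Spry2, Dusp4, Spred1, Dusp6, Spred2, Etv4 and Spry4. The intervals of neighbours in this order overlapped throughout, and the interval of Etv5 overlapped that of each other member. Etv5, Spry2, Spred1 and Dusp6 were above 0 in every MF1 pool, against 13.4% of all features. In C57 these genes and Dusp4 were above 0 in every pool measured, against 18% of all features, and Spry4 was below 0 in both of its pools, against 17.7%. Dusp6 had only 2 C57 pools, and 2 of its 5 C57 arrays were above 0. At an unadjusted p under 0.05 (limma) Etv5 and Spry2 were higher rostrally in MF1, against 2.36% of features, and the same 2 genes in C57, against 4.21%. On the lower side there were 0 members in MF1, against 1.97% of features, and 0 in C57, against 5.46%. With adjustment 0 members passed in either strain, and 0% of all features did. The difference between strains passed for 0 of the 8 members, at an unadjusted p of 0.0999 or more, against 6.17% of features at an unadjusted p under 0.05 and 0% after adjustment.

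The other FGF pathway lists had medians from -0.05 to 0.07. Of 22 ligands on the array 10 were tested, with 4 above 0, 6 below and a median of -0.05. The ligands of smallest p were Fgf11, an intracellular FGF homologue, at -0.66 ± 0.43 (SD, n = 6) and below 0 in 6 of 6 pools, and the secreted Fgf15 at -0.39 ± 0.61. Fgf8 and Fgf17, signals of the rostral source, are given above. Of 9 receptors and partners tested the median was 0.07, with 1 higher and 2 lower at an unadjusted p under 0.05. The higher one was Fgfbp3, a secreted binder of FGFs, at 1.07 ± 0.11 in 6 of 6 pools, and the lower ones were Flrt3, a membrane partner of FGF receptors, at -0.62 ± 0.50 and the receptor Fgfr3, given above. Without MF1 pool 3 the median was -0.02 over 9 ligands and 0.24 over 8 receptors and partners.

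Inside the cell, 13 genes of the Ras-ERK cascade had a median of 0.01, 7 above 0 and 6 below. Braf, the kinase that activates MEK, was at -0.50 ± 0.24 (SD, n = 6) and below 0 in 6 of 6 pools (limma, unadjusted p = 0.0063, adjusted p = 0.444), and the GTPase Nras was at -0.22 ± 0.35. Of 19 tested relatives and other ERK targets, 8 were above 0 and 11 below, with a median of -0.04. The 2 at an unadjusted p under 0.05 were Dusp8, a phosphatase of stress-activated kinases, at 0.44 ± 0.21 and Lrig1, an inhibitor of receptor tyrosine kinases, at 0.35 ± 0.21, each above 0 in 6 of 6 pools. In these 4 lists 0 genes passed adjustment over all features (limma), and 3 were higher and 4 lower at an unadjusted p under 0.05, against 4.34% and 4.62% of all features. The medians without MF1 pool 3 were 0.05 for the cascade and -0.0039 for the relatives.

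**Figure D5:**
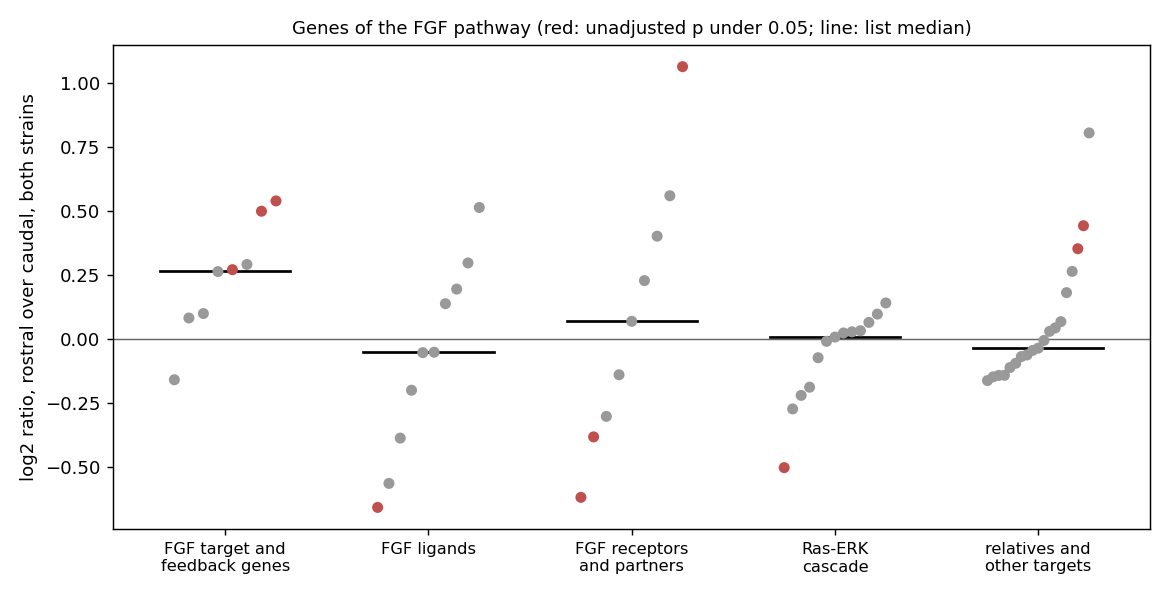
Mean rostral over caudal log2 ratio over both strains (y axis) of the genes tested in each FGF pathway list (x axis), sorted within a list, with a line at the list median and red for an unadjusted p under 0.05. The target and feedback genes have a median of 0.27, and the medians of the other lists lie between -0.05 and 0.07.

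Markers of other tissue that the dissection could hold were measured as well, and those of meninges and choroid plexus lay mostly on the caudal side. All 7 tested genes of meninges and mesenchyme were below 0, with a median of -0.15 and pool medians from -0.18 to 0.01 in MF1 and from -0.44 to -0.38 in C57. Of 7 genes of choroid plexus and hem, 6 were below 0, with a median of -0.24 and pool medians from -0.22 to -0.098 in MF1 and from -0.49 to -0.10 in C57. Of 7 ventral telencephalic genes 3 were above 0 (median -0.02), as were 2 of 4 diencephalic genes (median -0.03) and 1 of 3 blood genes (median -0.05). Of 6 markers of cortical neurons 5 were above 0 with a median of 0.23, and pool medians ran from -0.03 to 0.47 in MF1 and from 0.13 to 0.39 in C57. Of 6 markers of cortical progenitors 5 were above 0 with a median of 0.13. Without MF1 pool 3 the median was -0.07 for meninges and mesenchyme, with 5 of 7 genes below 0. For choroid plexus and hem it was -0.20, with 5 of 6 tested genes below 0. Cortical neurons had a median of 0.25 with 4 of 6 genes above 0, and cortical progenitors 0.18 with 5 of 6 above 0. The medians were 0.04 for the ventral, -0.03 for the diencephalic and -0.26 for the blood genes. For comparison the pool medians of the 8 members ran from 0.12 to 0.52 in MF1, with pool 3 the lowest, and from 0.26 to 0.33 in C57. The part of these tissues in the ratios of the members was not tested.

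By the root mean square difference of the 6 pool ratios, the named genes most like Etv5 among 8905 were Ptn, the secreted growth factor pleiotrophin, at 0.13, H2az2, a histone variant, at 0.16 and the kinase Stk39 at 0.17. Those most like Spry2 were Bcl11b, a transcription factor of cortical neurons, at 0.13, Gemin7, a part of the complex that assembles splicing particles, at 0.15 and Syap1 at 0.18. Those most like Spred1 were Mkrn2, Zc3h8 and Sprr1a, each at 0.07. These are the closest of many genes over 6 pools and are a description.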

How the data were processed

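RNA of rostral and caudal neocortex was extracted with Trizol per the labels, amplified as cDNA with the SMART method per the series' design text, and hybridised on 12 arrays of 2 dyes, 2 arrays to a pool with the dyes exchanged. The deposited values are log2 ratios between the dyes, as read from the values themselves, and top out at 16.61, which corresponds to a 100000-fold ratio. No source used here gives the scanner software, background treatment, normalization or numerator. Signal over background is unknown, and the number of arrays limits the precision. The table held 21998 probes and 0 columns of other samples.

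The 232 control probes and 700 values at the ceiling were left out; 0 of the latter belonged to these genes. Of the remaining probes 16632 carried 1 gene symbol, 139 several and 4995 no entry. Each array was centred on its median, arrays with rostral RNA in Cy3 were turned, probes of a gene were averaged, and both arrays of a pool, each needed, were averaged into 1 replicate. Features with at least 2 pools per strain, 14432 in all and 11504 of them named, entered the model of limma 3.58.1 (R 4.3.3), which estimated each strain's mean and a common spread. P-values were adjusted over all of them by the Benjamini-Hochberg method, with a threshold of 0.05. The fit was tested on simulated data with independent noise and planted ratios larger than the members' means. That test does not bear on ratios of the members' size. A fit of 15288 single probes was made in the same way. The design text has pools collected within single litters, with left and right cortices joined, but does not say whether a strain's pools came from different litters, so p-values reflect only how these pools vary, which may be technical. Replicate numbers were not taken to pair pools of different strains: deviations of same-numbered pools correlated at -0.107, 0.0472 and -0.000669.

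The members and gene lists were chosen with earlier results of these data known. By the rule for named genes, each member and probe is named, with the 2 genes of smallest p in each other FGF list, the genes that bear on direction and the 3 genes most like each of 3 members; list members at an unadjusted p under 0.05 beyond these were named after their values were seen. Promoter windows came from RefSeq tables on GRCm38.p6, where 5 of the 8 members were matched. The alternatives were other centring, scaling, ceiling, pool and probe rules, single dye orientations, the fit of 12 arrays, a replicate block and leaving out each pool.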

Additional observations from a re-analysis of the deposited data

How the results depend on the processing

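Over both strains Etv5 kept its sign under every alternative run, with ratios from 0.35 with arrays not centred to 0.62 with rostral RNA in Cy5 alone, and from 0.52 to 0.55 with each pool left out. Spry2 did so from 0.31 with arrays not centred to 0.68 with rostral RNA in Cy3 alone, and from 0.45 to 0.57 with each pool left out. Dusp4 kept its sign as well. With rostral RNA in Cy3 alone Etv5, Spry2, Spry4 and Dusp4 were higher at an unadjusted p under 0.05 (limma), against 8.87% of features. With rostral RNA in Cy5 alone Etv5, Dusp6 and Spred2 were, against 6.53%. Spry2 was at an unadjusted p of 0.0647 in the latter, and Spred1 at 0.149 and 0.0515 in turn (limma). Uncentred, the 8 members had a median of 0.09 and all features one of -0.18, and 1 member, Etv5, was higher at an unadjusted p under 0.05, against 0.977% of features higher and 14% lower. With the replicate block and with the probe of most values kept 2 members were, Etv5 and Spry2, against 3.14% and 4.41% of features. Both probes of Etv5 and both of Spred1 had values on 12 of 12 arrays, so the probe name settled which was kept. For Spred1 it was the lower probe, CG_Mm_EXT_3106868_1. Depth cannot be weighed, since no spot signals were used here.

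Counts of features past an adjusted p of 0.05 were 0 in each comparison on pool means of both dyes, with an exception given below. In the fit of 12 arrays they were 25 over both strains, 3 in MF1, 11 in C57 and 32 for single probes, and with a dye term per strain, an alternative chosen after seeing the data, 21, 0 in MF1, 9 in C57 and 25 for single probes. By gene, 1 member passed over both strains in each of these fits, Etv5, at adjusted p = 0.0276 and 0.0398 (limma). Neither of its probes passed when fitted singly. Probe CG_Mm_3001489_1 was at adjusted p = 0.208 and 0.263, and probe CG_Mm_EXT_3107692_1 at 0.256 and 0.319 (limma). The pass thus held for the mean of both probes alone. The consensus correlation of both arrays of a pool was 0.00681 and 0.243 in the fits by gene, so the first fit counts these arrays as nearly independent. In C57 188 features passed with rostral RNA in Cy3 alone and 118 with rostral RNA in Cy5 alone, where dye and tissue cannot be told apart. Among single probes complete on the 12 arrays 6 passed on pool means, the exception named above. With pool number as a replicate block, which pairs pools that share only a number, 0 features passed, and Etv5 was at 0.54 with an adjusted p of 0.736 and Spry2 at 0.50 with 0.736.

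Signs turned as follows, with 0 of the main or turned values past adjustment and the cause not tested. Over both strains Dusp6 was at -0.0738 in the fit of 12 arrays, -0.0544 with a dye term per strain, -0.42 with pools of 1 orientation kept and -0.82 with rostral RNA in Cy3 alone, where Spry4 under the same settings was at 0.22, 0.45, 0.26 and 1.72. Spry4 ran from -0.38 to 0.0763 with each pool left out. Etv4 was at -0.11 and Spred2 at -0.13 with arrays not centred, Spred2 was at -0.12 with rostral RNA in Cy3 alone, and Spred1 was at -0.046 with the probe of most values kept. The lower Spred1 probe was at 0.079 with rostral RNA in Cy5 alone.

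In MF1, arrays not centred gave -0.0533 for Dusp6, -0.10 for Etv4 and -0.10 for Spred2, and Spry4 ran from -0.001 to 0.91 with each pool left out. In C57, Dusp4 was at -0.10 with rostral RNA in Cy5 alone. Dusp6 was at -0.31 and -0.27 in both fits of 12 arrays, -1.003 with pools of 1 orientation kept and -1.69 with rostral RNA in Cy3 alone, where Spry4 was at 0.00804, 0.46, 0.0832 and 2.62. Etv4 was at -0.11 with arrays not centred, -0.028 with rostral RNA in Cy3 alone and from -0.11 to 0.30 with each pool left out. Spred2 was at -0.16 with arrays not centred and -0.29 with rostral RNA in Cy3 alone, and Spred1 at -0.11 with the probe of most values kept.

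The strain difference, MF1 minus C57, turned to -0.0927 for Dusp4, 1.74 for Dusp6, 0.18 for Etv5 and -1.79 for Spry4 with rostral RNA in Cy3 alone, and to -0.13 for Etv4, -0.21 for Spred1, -0.65 for Spred2 and -0.19 for Spry2 with rostral RNA in Cy5 alone. In both fits of 12 arrays it was 0.47 and 0.43 for Dusp6 and -0.10 and -0.21 for Spred2, and with a dye term per strain -0.0261 for Spry4. With pools of 1 orientation kept it was 1.17 for Dusp6 and -0.10 for Spred2, with arrays scaled 0.17 for Etv5, and with arrays not centred -0.0023 for Spred1. With each pool left out it ran from -0.0738 to 0.31 for Dusp4, from -0.18 to 0.22 for Etv4, from -0.0222 to 0.11 for Spred1 and from -0.0168 to 0.12 for Spred2.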
